A study of Homo sapiens with 12 samples.

Results

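Human chromosome 19 carries the largest collection of zinc finger genes in the genome, and 247 of them were followed here in a colorectal cancer cell line. They were taken as the protein-coding genes of chromosome 19 whose symbol is ZNF followed by a number in a GRCh38 annotation, joined by Ensembl identifier to an expression table of 63677 identifiers. The annotation held 249 such genes, and the other two, ZNF8 and ZNF229, were not analysed here. Of the 247, 160 were tested, 4 passed the filter of at least 10 reads in at least 3 libraries but held a value that could not be read with certainty, 67 were below the filter and 16 had no read in any library.

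The study asked how a CR3 peptide, described by its title as perturbing condensates, alters expression in HCT116, an epithelial colorectal cancer line. PolyA RNA was sequenced in 12 libraries, 3 for each of 4 genotypes: CR3, scramble, reverse and mCherry. Every group, mCherry included, received doxycycline, which the design text says induced CR3 and its variants; the labels give it as 1 ug/ul, 48 before extraction with no unit. The design text calls the lines clones, and no label says whether the 3 libraries of a genotype came from 1 clone or from several, and genotype and clone cannot be told apart. P-values therefore measure only the spread between these libraries, which may be technical.

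Most of these genes encode proteins with a row of C2H2 zinc fingers, each finger reading a few bases of DNA, joined to a KRAB box that binds the co-repressor TRIM28. TRIM28 in turn brings in the histone H3 lysine 9 methyltransferase SETDB1 and HP1 proteins, and many KRAB zinc finger proteins silence transposable elements in this way. The genes arose by tandem duplication and stand in clusters along the chromosome, and several of their promoters are known to be methylated in colorectal tumours. In the open reading frames of the annotation, 213 of the 247 held a KRAB pattern, 33 held none and 1 had no coding transcript. The median number of fingers was 12 and the highest was 39. Reads of near-identical copies can be split between genes: 25 members, 12 of them tested, shared over 20% of their 50-base words with another gene.

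The promoters of 5 members that had reads almost solely in CR3 libraries, and of ZNF146, the most abundant member, are shown because the values below set these genes apart. Each is the RefSeq window of 250 bases before and 50 after the gene's start on GRCh38.p14, written 5′ to 3′ on the gene's own strand, with every CG dinucleotide, the target of DNA methylation, in capitals. ZNF260 lies at chr19:36528222-36528521, ZNF529 at chr19:36605208-36605507, ZNF569 at chr19:37467395-37467694 and ZNF681 at chr19:23758842-23759141, all on the minus strand. ZNF71 lies at chr19:56595052-56595351 and ZNF146 at chr19:36214856-36215155, both on the plus strand.
ZNF260: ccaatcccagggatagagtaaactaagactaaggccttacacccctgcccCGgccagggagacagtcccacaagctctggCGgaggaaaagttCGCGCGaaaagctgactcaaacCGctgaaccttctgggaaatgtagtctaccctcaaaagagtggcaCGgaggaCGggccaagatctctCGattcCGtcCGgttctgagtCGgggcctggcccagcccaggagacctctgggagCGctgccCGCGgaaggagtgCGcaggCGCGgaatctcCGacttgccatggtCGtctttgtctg
ZNF529: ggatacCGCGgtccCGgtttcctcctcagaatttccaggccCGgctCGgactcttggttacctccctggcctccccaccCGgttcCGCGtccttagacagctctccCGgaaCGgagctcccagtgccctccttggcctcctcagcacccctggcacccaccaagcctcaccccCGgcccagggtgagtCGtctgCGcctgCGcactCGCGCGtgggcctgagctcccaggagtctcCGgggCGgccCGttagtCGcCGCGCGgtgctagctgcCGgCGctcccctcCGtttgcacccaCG
ZNF569: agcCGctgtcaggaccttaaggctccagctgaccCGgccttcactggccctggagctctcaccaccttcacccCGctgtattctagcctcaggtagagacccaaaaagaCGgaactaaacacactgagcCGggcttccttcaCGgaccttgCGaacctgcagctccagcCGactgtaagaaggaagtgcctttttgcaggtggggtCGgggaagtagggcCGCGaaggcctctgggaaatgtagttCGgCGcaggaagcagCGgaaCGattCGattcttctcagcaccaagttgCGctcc
ZNF681: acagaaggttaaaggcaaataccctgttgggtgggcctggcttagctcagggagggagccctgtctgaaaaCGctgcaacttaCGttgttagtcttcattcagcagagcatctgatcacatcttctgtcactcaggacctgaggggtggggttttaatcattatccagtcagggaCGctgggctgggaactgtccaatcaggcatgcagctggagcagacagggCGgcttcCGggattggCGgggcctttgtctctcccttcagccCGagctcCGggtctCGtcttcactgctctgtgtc
ZNF71: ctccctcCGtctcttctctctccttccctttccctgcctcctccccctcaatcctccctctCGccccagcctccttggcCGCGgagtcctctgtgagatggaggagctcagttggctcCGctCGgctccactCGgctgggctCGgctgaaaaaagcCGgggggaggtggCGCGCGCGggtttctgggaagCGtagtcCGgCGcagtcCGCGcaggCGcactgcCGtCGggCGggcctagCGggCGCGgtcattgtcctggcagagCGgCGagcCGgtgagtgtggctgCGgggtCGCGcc
ZNF146: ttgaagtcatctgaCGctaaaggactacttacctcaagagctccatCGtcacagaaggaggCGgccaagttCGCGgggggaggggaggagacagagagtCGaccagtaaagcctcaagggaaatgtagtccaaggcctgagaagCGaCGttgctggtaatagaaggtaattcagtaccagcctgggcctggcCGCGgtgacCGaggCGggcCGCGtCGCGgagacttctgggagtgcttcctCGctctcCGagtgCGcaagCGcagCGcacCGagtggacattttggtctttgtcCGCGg

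These windows held 20 CG in ZNF260, 28 in ZNF529, 17 in ZNF569, 9 in ZNF681, 31 in ZNF71 and 24 in ZNF146. Over the 215 members found in the RefSeq promoter table the median was 20 CG, against 22 over all 14895 protein-coding promoters. The letters CCAAT, on either strand, stood in 54% of the members' windows and in 36.4% of all. GGGCGG stood in 68.4% of the members' windows and in 59.4% of all, the NRF1 motif, GCGCA and GCGC with 1 base of any kind between them, in 12.6% and in 8.62%, and TATAAA in 1.86% and in 9.37%. A match is a description of letters and shows no binding.

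The members were modestly expressed. Values here are normalized reads, that is reads divided by the authors' size factor for the library. The tested members had a median of 177 normalized reads over the 12 libraries, against 480 over all 15427 genes tested. Per kilobase of exon, the median was 37.1 normalized reads for the 160 tested members, with a range of 0.315 to 677, and 125 for all tested protein-coding genes. ZNF146, a protein made almost solely of fingers and known to be overexpressed in colorectal cancer, led with 677 per kilobase. ZNF428 followed with 287, ZNF317 with 272, ZNF581 with 240, ZNF121 with 167, ZNF580 with 162, ZNF787 with 155 and ZNF574 with 150 normalized reads per kilobase. Of these 8, only ZNF317 held a KRAB pattern.

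All members together took 0.22 ± 0.00686% of the reads in CR3, 0.215 ± 0.00374% in scramble, 0.215 ± 0.00389% in reverse and 0.213 ± 0.0065% in mCherry libraries (SD, n = 3 each). These shares overlapped. ZNF146 alone gave 6.68% of the members' reads.

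Differences were called by limma on log2(normalized reads + 1) at a Benjamini-Hochberg adjusted p under 0.05 over all 15427 genes. Against scramble, 16 members were higher and 13 lower in CR3, where 37.8% of all tested genes were called (19.1% higher and 18.7% lower); without CR3 replicate 1 the members called numbered 19. Against reverse, 17 were higher and 14 lower, with 33.6% of all genes called (16.9% higher and 16.7% lower). Against mCherry, 16 were higher and 9 lower, with 28.6% of all genes called (14.1% higher and 14.5% lower). In all 3 comparisons, which share the CR3 libraries, 12 members were higher and 8 lower, together 12.5% of those tested, where 22.2% of all genes were called (11% higher and 11.2% lower). With a filter of at least 1 read in at least 1 library, 36 of 223 members were called in all 3. That filter admits further members with reads almost solely in CR3. The share of all genes called under it is not given here, so the rise is no result about the members.

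Size separated these 20 genes into unlike sets. Among them, 10 were higher in CR3 by a log2 fold change of at least 1 in all 3 comparisons, a size reached upward by 4.49% of all genes, and none was lower by as much, a size reached downward by 0.0843% of all genes. These 10 passed the filter only through their CR3 reads, so they had to differ; neither their count nor their p-values lend support, and they are described below by their reads alone. The other 150 tested members stayed below a log2 fold change of 1 in either direction in all 3 comparisons, and 141 stayed below 0.5. The median log2 fold change over the 160 was -0.02 against scramble, -0.01 against reverse and -0.01 against mCherry, also with genes at 0 set to their lowest bound, where the medians of all genes were 0.01, 0.01 and 0.00.

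**Figure D1:**
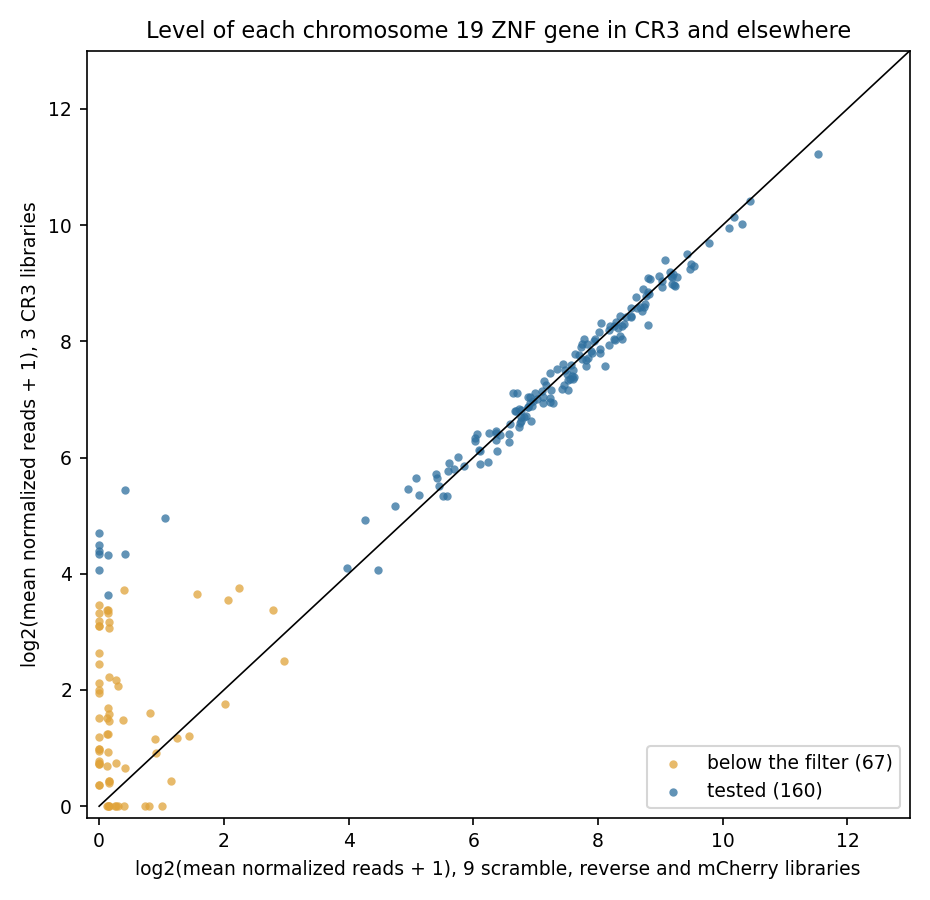
Mean level of each chromosome 19 ZNF gene in the 3 CR3 libraries (vertical) and in the 9 scramble, reverse and mCherry libraries (horizontal), both as log2(mean normalized reads + 1); each point is a gene, tested (160) or below the filter (67), and the line marks equal levels. Expressed genes lie along the line, while a column of genes at or near 0 outside CR3 rises at the left.

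The 10 strongly higher genes were ZNF260, ZNF529, ZNF569, ZNF681, ZNF71, ZNF536, ZNF841, ZNF432, ZNF420 and ZNF549. Their summed level was 182, 264 and 226 normalized reads in the CR3 libraries and between 0 and 3.84 in the 9 others. ZNF432 and ZNF549 are named after their values were seen. At most 9.9% of the 50-base words of any of them were shared with another gene.

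ZNF260, whose rat counterpart acts as a cardiac transcription factor, reached the highest level of the 10. It had 34, 73 and 30 reads in the CR3 libraries, against 1, 1 and 0 in scramble, 0 in each reverse and 1, 0 and 0 in mCherry. The groups did not overlap. In normalized reads it averaged 42.6 ± 18.6 in CR3, and its level was at least 14.4-fold higher than in reverse, taking 3 reads per library as the floor for a count of 0. The ratio was 70.7 to scramble (95% counting interval 19.2 to 590) and 134 to mCherry (23.7 to 5333), and intervals and floors cover counting error only.

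ZNF529, a KRAB zinc finger gene, is the next member along the chromosome from ZNF260. It had 20, 25 and 32 reads in CR3 and no read in any of the 9 other libraries. That made it at least 8.98-fold higher than in scramble, 8.39-fold than in reverse and 8.43-fold than in mCherry. The decimal place of the 20 was chosen with the group labels, and these bounds rest on it. With places chosen without labels, ZNF529 no longer passed the filter.

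ZNF569, a KRAB protein reported to dampen MAP kinase signalling in reporter assays, had 23, 30 and 16 reads in CR3 and none elsewhere. It was at least 7.8-fold higher than in scramble, 7.29-fold than in reverse and 7.32-fold than in mCherry. ZNF681, from the primate-expanded cluster near the centromere, had 16, 30 and 18 reads in CR3 and none elsewhere, which puts it 6.79-fold or more over reverse, the smallest of its 3 bounds. Neither gene had a read outside CR3. In both, the decimal place of the 30 was chosen with the group labels, and the bounds rest on it. With places chosen without labels, ZNF569 and ZNF681 no longer passed the filter. ZNF71, named for its induction by tumour necrosis factor in endothelial cells, had 11, 23 and 26 reads in CR3 and none elsewhere, which puts it 6.53-fold or more over reverse, again its smallest bound. ZNF420, known as APAK, a KRAB protein that binds p53 and restrains its pro-apoptotic targets, had 12, 19 and 18 reads in CR3 and none elsewhere, at least 5.29-fold higher than in reverse. In none of these 4 genes did the CR3 libraries overlap any other.

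ZNF536, a brain-enriched gene that restrains neuronal differentiation and lies outside the clusters, was the member of the 10 with most reads elsewhere. It had 34, 37 and 25 reads in CR3, against 1, 2 and 0 in scramble, 3, 2 and 0 in reverse and 0, 2 and 0 in mCherry. It averaged 30.3 ± 3.22 normalized reads in CR3, 0.943 ± 0.935 in scramble, 1.72 ± 1.59 in reverse and 0.561 ± 0.971 in mCherry, without overlap. The ratio was 33 to scramble (95% counting interval 11 to 163) and 47 to mCherry (12.7 to 393). To reverse it was smallest, 17.6 as a ratio of mean normalized reads, with no interval computed.

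ZNF841 and ZNF432 overlap on the minus strand in GENCODE, ending at 52095765 and 52095738 of chromosome 19, so reads of their shared stretch cannot be assigned with certainty. ZNF841 had 23, 26 and 13 reads in CR3, against 1, 1 and 0 in scramble, 0 in each reverse and 0, 0 and 1 in mCherry. ZNF432 had 12, 23 and 24 reads in CR3, against 1, 0 and 0 in scramble and none in reverse or mCherry. ZNF549 had 10, 15 and 11 reads in CR3, against 0, 0 and 1 in scramble and none in reverse or mCherry. In all 3 the CR3 libraries lay over all others.

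The same pattern reached below the filter. By a rule set after the values were seen, at most 3 reads over the 9 other libraries and at least 10 over the 3 CR3 libraries, 23 of the 247 members (9.31%) had reads nearly confined to CR3, against 2.14% of all 19376 protein-coding genes. With the groups exchanged, the rule found 0 members for scramble, 0 for reverse and 0 for mCherry, where it found 0.0877%, 0.0516% and 0.124% of protein-coding genes. Read against the genes that were near 0 outside CR3, 31.1% of the 74 such members had at least 10 CR3 reads, as did 33.3% of the 33 such ZNF genes of other chromosomes and 9.68% of the 4278 such protein-coding genes. Another 4 members would have met the rule but held an uncertain value. With no read allowed outside CR3 the rule left 11 members, and leaving out each library in turn left 19 to 23. Of the 23, 21 held a KRAB pattern, 22 had at least 1 read in each CR3 library, and none shared more than 13.2% of its 50-base words with another gene.

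**Figure D2:**
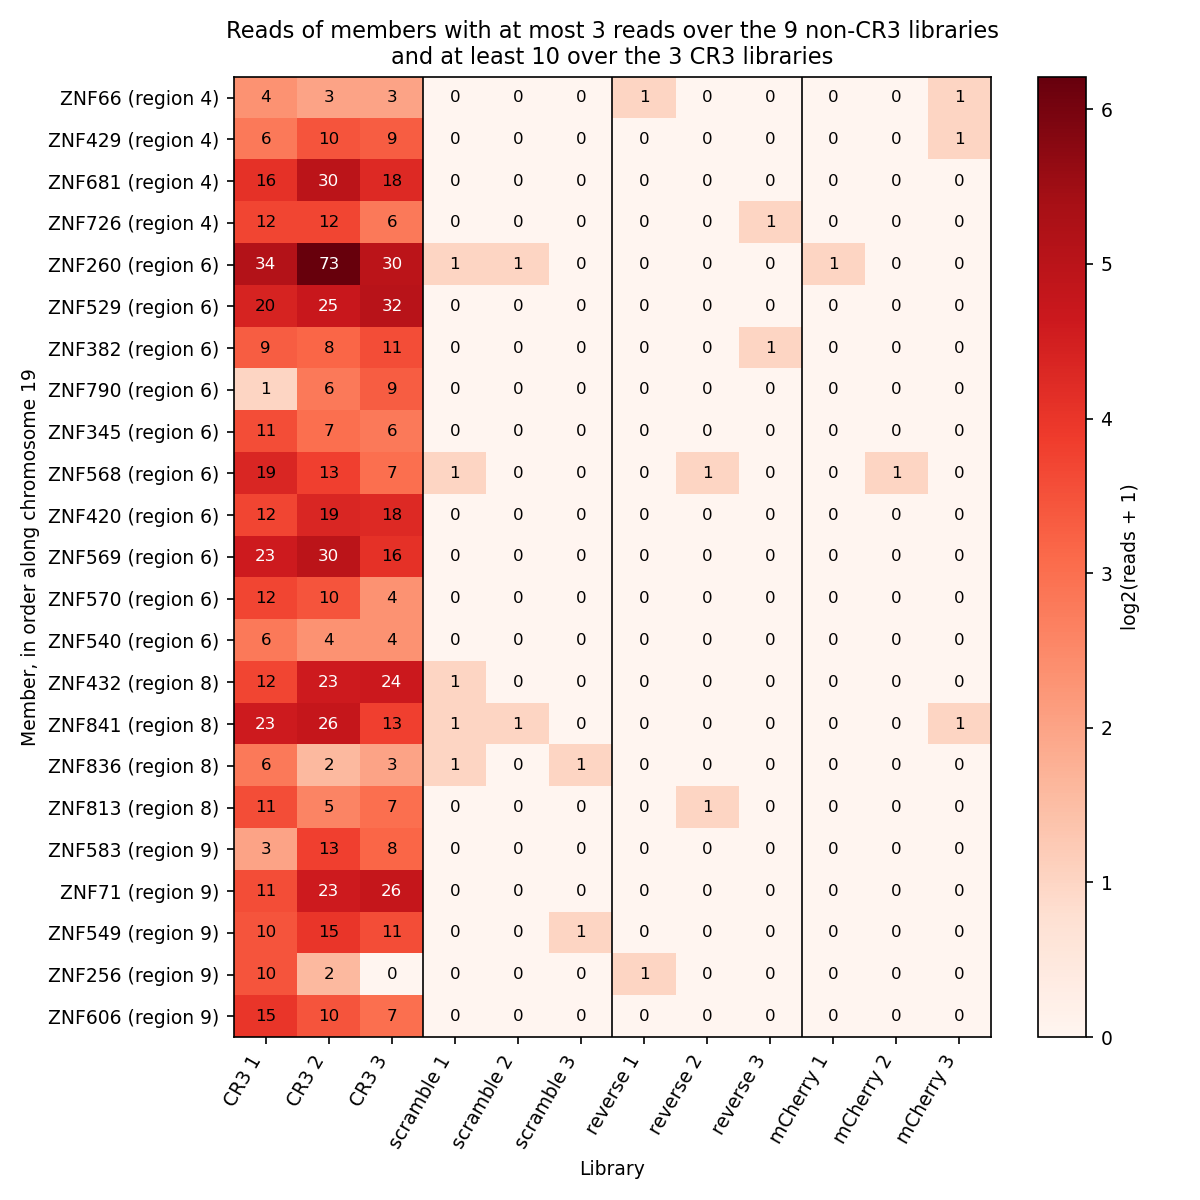
Reads of the 23 members with at most 3 reads over the 9 scramble, reverse and mCherry libraries and at least 10 over the 3 CR3 libraries; rows are genes in order along chromosome 19 with their region, columns are libraries, numbers are reads and the colour is log2(reads + 1). The counts stand in the 3 CR3 columns, up to 73 reads, with single reads at most in the others.

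These 23 genes summed to 286, 369 and 272 reads in the CR3 libraries and to between 1 and 5 reads in each of the 9 others. They made up 0.672%, 0.771% and 0.708% of all members' reads in CR3, so they did little to the total. CR3 libraries were not the deepest: they held 17430188 to 21169017 reads, and the deepest of all, an mCherry library, held 23566048. A stricter rule, at least 1 read in each library of a group and 0 in the 9 others, found 14 members for CR3, where 1.3% of protein-coding genes met it, and 0 members for scramble, reverse and mCherry, where 0.0826%, 0.0671% and 0.0723% did. In the opposite direction, 11 members had reads elsewhere but 0 in CR3, and none of them passed 4 reads in any library. Likewise 47 members were at 0 in scramble, 53 in reverse and 40 in mCherry with reads elsewhere, up to 32, 73 and 32 in a library. The matching shares of all protein-coding genes are not given here.

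Several members below the filter are known for roles in growth control or imprinting. ZNF382, a KRAB gene described as a tumour suppressor silenced by methylation, had 9, 8 and 11 reads in CR3, against 0, 0 and 1 in reverse and none in scramble or mCherry. ZNF568, whose mouse counterpart silences a placental Igf2 promoter, had 19, 13 and 7 reads in CR3, against 1, 0 and 0 in scramble, 0, 1 and 0 in reverse and 0, 1 and 0 in mCherry. ZNF331, an imprinted gene methylated in colorectal cancer, had 4, 16 and 10 reads in CR3, the last of uncertain decimal place, against none in scramble or reverse and 0, 1 and 0 in mCherry. The CR3 libraries did not overlap the others in any of the 3, and none was tested.

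Other genes of that kind had almost no reads anywhere. ZNF671 had 2 reads in all, both in 1 mCherry library, and ZNF667 had 1, in a scramble library; both are described as tumour suppressors silenced by methylation. ZNF93, which restrains a family of L1 elements, had 2 reads over the 12 libraries. ZNF43 had 3, ZNF208 had 2 and ZNF257 had 1, all in CR3. At this depth a difference could not be detected in these 6 genes.

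The 23 genes were unevenly placed. Members were divided into 9 regions wherever more than 1 Mb separated neighbours, with 11 members left dispersed. The region at 36.2 to 37.8 Mb, on the long arm, held 10 of the 23 among its 26 members and 479 of their CR3 reads. The regions at 51.6 to 53.6 Mb, 55.5 to 58.5 Mb and 19.7 to 24.1 Mb held 4, 5 and 4 of them among 40, 58 and 37 members, and the other regions and the dispersed genes held none.

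Among tested members, the region at 36.2 to 37.8 Mb had 4 higher and 1 lower in all 3 comparisons of 14 tested, beside 11% and 11.2% of all genes; the 4, ZNF260, ZNF529, ZNF420 and ZNF569, passed the filter only through CR3. Its summed level was nonetheless 3679 normalized reads in CR3, 4132 in scramble, 4079 in reverse and 3892 in mCherry, since ZNF146 lies in it. The primate-expanded region at 19.7 to 24.1 Mb had the lowest share of tested members, 40.5%, with 7 of its 37 members at no read in any library, and ZNF681 was its single called member. In the regions at 11.5 to 12.6 Mb, 34.7 to 35.0 Mb and 43.5 to 45.1 Mb no member was called in all 3 comparisons among 12, 5 and 17 tested.

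**Figure D3:**
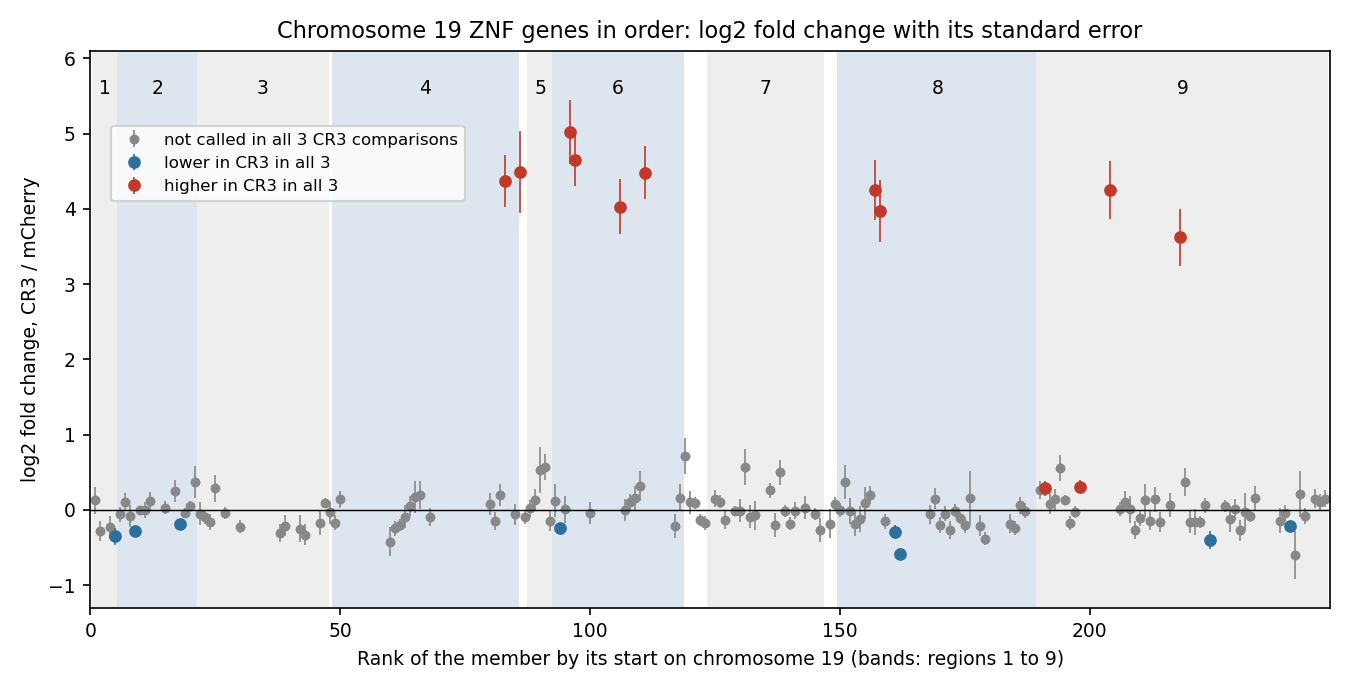
Log2 fold change of CR3 over mCherry with its standard error for the 160 tested members, placed by their rank along chromosome 19; bands number the 9 regions, red points were higher and blue points lower in CR3 in all 3 comparisons. Of the 12 red points, 10 stand between 3.62 and 5.02, in regions 4, 6, 8 and 9 and 1 outside the regions, while ZNF444 (0.31) and ZNF579 (0.29) lie near 0 with the rest.

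The promoter letters of the 23 genes can be set beside those of the near-silent members with fewer CR3 reads, as a description with no test. All 23 had a RefSeq promoter, with a median of 23 CG and a range of 9 to 34. Of the members with at most 3 reads elsewhere and under 10 reads in CR3, only 39 were found in the RefSeq promoter table. Those 39 had a median of 16 CG and a range of 8 to 42, and the rest are not covered. CCAAT stood in 30.4% of the windows of the 23 and in 71.8% of those of the 39. The NRF1 motif stood in 30.4% of the windows of the 23 and in 12.8% of those of the 39. It was not particular to the 23: it stood in 28.6% of 7 windows of members lower in CR3 in all 3 comparisons. Of 12 windows of members with no reads, 25% held it. Among the windows printed above, those of ZNF260, ZNF529, ZNF71 and ZNF146 held it.

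Over the 12 libraries, the genes whose log2 level ran most like ZNF260 were ZNF717 (Pearson r = 0.9900), UTS2R (0.9853) and MEIS1 (0.9847). For ZNF529 they were C8orf31, FAM110B and SLITRK3, and for ZNF569 ADGRB3, ROBO2 and BCHE, with r of 0.9998 to 1.0000. Each of these 9 genes was likewise near 0 outside CR3, so the measure rests on the 3 CR3 libraries standing apart.

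Markers of other cells moved with these genes. In a list of 14 genes of embryonic kidney and neuron-like lines, 13 of them in the table, 7 of 8 tested were higher in CR3 in all 3 comparisons, and the list summed to 2205 to 2474 normalized reads in CR3, 215 to 235 in scramble, 251 to 264 in reverse and 239 to 278 in mCherry. IRS4 had 488, 587 and 575 in CR3 and at most 6.73 elsewhere, and LUZP4 had 397, 406 and 376 in CR3 and at most 0.959 elsewhere, while PAX2 had 225 to 254 in CR3 and 201 to 260 elsewhere. In the same list ELAVL4 was at 0 in CR3. Of 5 mesenchymal genes tested, 4 were higher in CR3, the list summing to 2368 to 2675 in CR3 and 889 to 1174 elsewhere. Among the called genes, IRS4, LUZP4, UCHL1, NEFM, INA, BEX4, CDH2 and COL5A1 passed the filter only through their CR3 reads. These genes had to differ, so the counts of called markers lend no support. The part of these cells in the members' result was not tested.

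Of the colorectal epithelial markers, 4 of 7 tested, EPCAM, KRT8, KRT18 and KRT19, fell in CR3, the list summing to 45702 to 52954 in CR3 and 55190 to 62831 elsewhere. CDH1, CDX2 and KRT20 were tested and not called lower in all 3. CDX1, VIL1, LGALS4, CDH17 and CEACAM5 were below the filter, with few reads in any group; CEACAM5 had 3.74, 6.14 and 8.5 normalized reads in CR3 and at most 3.2 elsewhere. Of blood markers none was tested, and PTPRC was at 0 in CR3. In bulk libraries, fewer cells of a type and less RNA per cell cannot be told apart.

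Members expressed in every library changed by small amounts, close to those of other genes. Among the 137 tested members with a mean of at least 50 normalized reads, 10 (7.3%) were called in all 3 comparisons, against 22.4% of all genes at that level. The median absolute log2 fold change of the 137 was 0.14 in each comparison, against 0.17, 0.15 and 0.13 for all genes at that level (scramble, reverse and mCherry). Between 50 and 1000 normalized reads, 8 of 132 members (6.06%) were called, against 17.2% of 7172 genes. Their log2 fold changes in CR3 ran from -0.67 to 0.40 against scramble, from -0.55 to 0.60 against reverse and from -0.59 to 0.57 against mCherry.

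ZNF480, a KRAB zinc finger gene, was the member that fell most by the smallest of its 3 changes. It had 293, 331 and 310 normalized reads in CR3, against 448, 448 and 437 in scramble, 426, 424 and 404 in reverse and 420, 499 and 490 in mCherry. The groups did not overlap. The log2 fold change was -0.51 ± 0.08 (SE) against scramble, -0.42 ± 0.08 against reverse and -0.59 ± 0.08 against mCherry, with limma adjusted p of 9.02e-05, 0.000614 and 3e-05. It was the single lower member that was still called in all 3 when libraries were scaled by total reads, where 16 members were higher and 1 lower instead of 12 and 8. With that scaling the median log2 fold change of all genes was 0.104 against scramble, 0.0939 against reverse and 0.0907 against mCherry. In the main fit these medians were 0.0133, 0.00713 and 0.0021. Upper-quartile scaling gave 13 higher and 4 lower members.

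ZNF146 had 2259, 2478 and 2392 normalized reads in CR3, against 3028, 2983 and 3151 in scramble, 3094, 2988 and 2870 in reverse and 2634, 2679 and 3117 in mCherry. All CR3 libraries lay under all others. The log2 fold change was -0.36 ± 0.06 (SE) against scramble, -0.33 ± 0.06 against reverse and -0.24 ± 0.06 against mCherry, with limma adjusted p of 0.000132, 0.000381 and 0.00602.

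ZNF766, the neighbour of ZNF480, had 260, 263 and 260 normalized reads in CR3, against 335, 372 and 311 in scramble, 347, 343 and 336 in reverse and 337, 316 and 306 in mCherry. ZNF551 had 173, 220 and 179 in CR3, against 312, 270 and 325 in scramble, 297, 293 and 245 in reverse and 231, 268 and 254 in mCherry. Both are KRAB genes and neither overlapped, with log2 fold changes of -0.37, -0.39 and -0.29 for ZNF766 and -0.67, -0.55 and -0.40 for ZNF551 against scramble, reverse and mCherry. ZNF551 was no longer called in all 3 without CR3 replicate 1, CR3 replicate 3 or mCherry replicate 2, and ZNF766 without mCherry replicate 1.

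The remaining 4 lower members had the highest adjusted p of the 8. ZNF121, a MYC-binding zinc finger protein, averaged 1039 ± 63.4 normalized reads in CR3, 1291 ± 74.1 in scramble, 1317 ± 31.1 in reverse and 1186 ± 107 in mCherry (SD, n = 3 each). ZNF558, which regulates the mitophagy gene SPATA18 in human neural cells, averaged 502 ± 15.9 in CR3, 573 ± 18.5 in scramble, 610 ± 25.2 in reverse and 612 ± 34.6 in mCherry. In both genes the CR3 mean was the lowest of the 4 groups. ZNF544 averaged 624 ± 24.9 in CR3, 788 ± 48.4 in scramble, 732 ± 32.6 in reverse and 720 ± 51.5 in mCherry. ZNF77 averaged 143 ± 3.19 in CR3, 176 ± 14.9 in scramble, 187 ± 13.1 in reverse and 183 ± 12.8 in mCherry. In none did CR3 overlap another group, but their largest limma adjusted p lay between 0.0335 and 0.0451. When each of the 12 libraries was left out in turn, ZNF121 and ZNF77 were still called in 4 of 12 fits, ZNF558 in 8 and ZNF544 in 9, and all 4 calls ended with libraries scaled by total reads or by upper quartile.

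Of the expressed members, 2 were higher in all 3 comparisons. ZNF444, a SCAN-domain factor known to bind the promoter of an endothelial scavenger receptor, had 660, 639 and 728 normalized reads in CR3, against 475, 559 and 579 in scramble, 498, 526 and 577 in reverse and 591, 513 and 534 in mCherry. Its log2 fold change was 0.33 ± 0.09 (SE), 0.34 ± 0.09 and 0.31 ± 0.09 against scramble, reverse and mCherry, with a largest limma adjusted p of 0.0144. ZNF579 had 504, 518 and 607 in CR3, against 412, 462 and 477 in scramble, 492, 441 and 389 in reverse and 420, 441 and 466 in mCherry, with a largest limma adjusted p of 0.0373. Neither overlapped the other groups, and the calls held in 10 of 12 fits with a library left out for ZNF444 and in 5 of 12 for ZNF579, whose call also ended under the loosest filter.

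**Figure D4:**
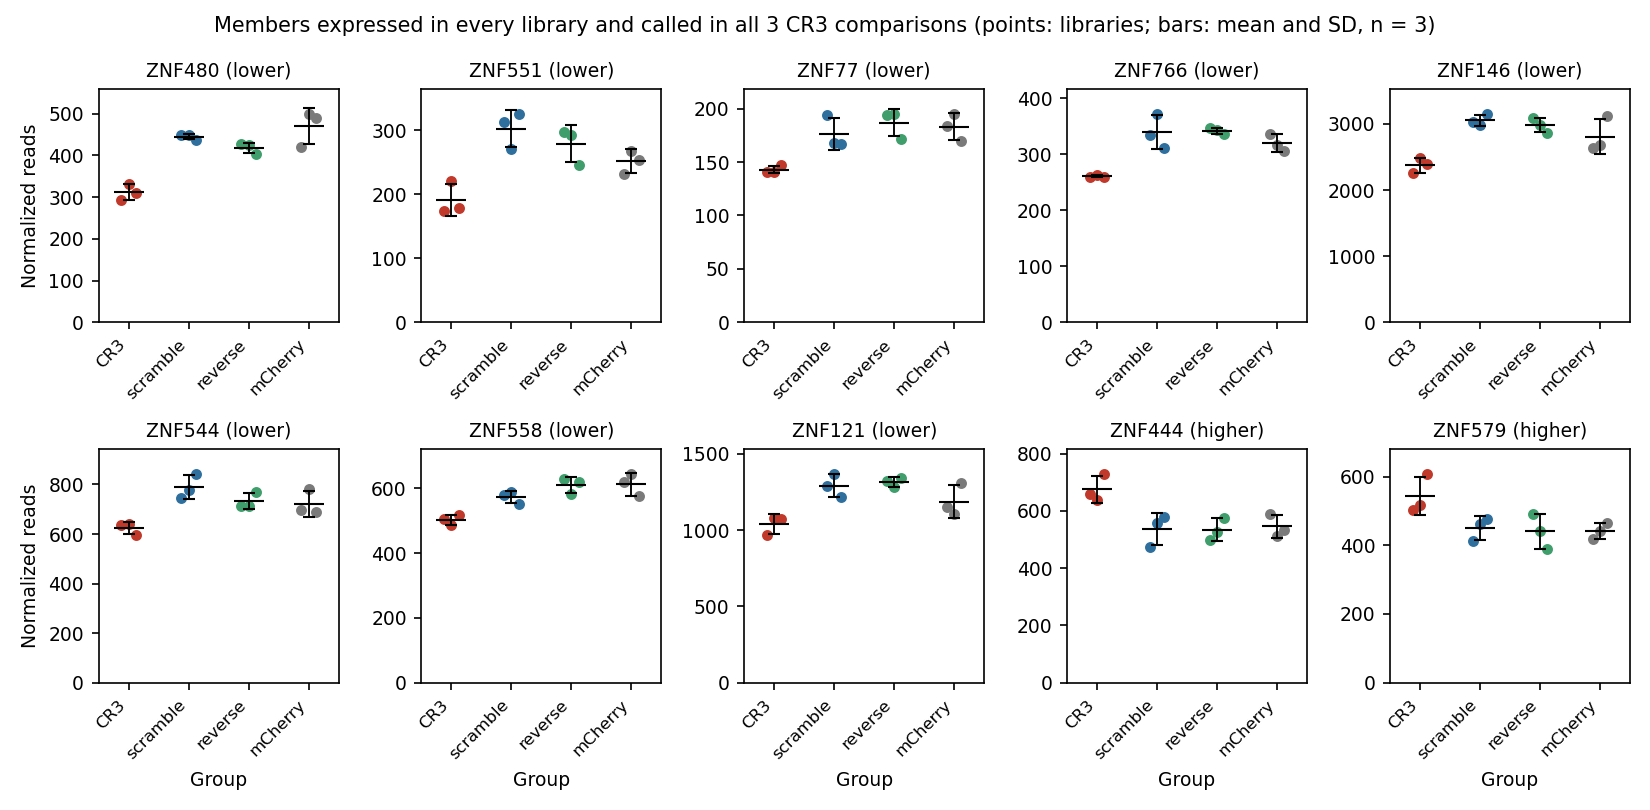
Normalized reads per library (points) with the group mean and SD (bars, n = 3) for the 10 members expressed in every library and called in all 3 CR3 comparisons, 8 lower and 2 higher; each panel is a gene, groups run from CR3 to mCherry and axes start at 0. In each panel the 3 CR3 points lie wholly under or wholly over the 9 others.

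The other highly expressed members did not pass the test in all 3 comparisons. ZNF317 averaged 1359 ± 8.58 normalized reads in CR3, 1410 ± 54 in scramble, 1386 ± 38 in reverse and 1359 ± 62.6 in mCherry, with log2 fold changes of -0.05, -0.03 and 0.00 and a standard error of 0.05. ZNF428, ZNF581, ZNF787 and ZNF574 likewise had no adjusted p under 0.05. ZNF580 was called against reverse alone (log2 fold change 0.24, limma adjusted p = 0.0164).

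Several members with known roles at repeats or in repression were expressed in every library and were not called in all 3 comparisons. ZNF91, which silences SVA elements, averaged 210 ± 6.84 normalized reads in CR3, 214 ± 22.9 in scramble, 235 ± 1.19 in reverse and 236 ± 37.3 in mCherry. ZNF274, which brings SETDB1 to the 3′ exons of zinc finger genes, averaged 293 ± 17.8 in CR3, 270 ± 29 in scramble, 291 ± 28.1 in reverse and 300 ± 16.5 in mCherry. Neither passed the test in any CR3 comparison. ZNF224, a repressor of the aldolase A gene, averaged 316 ± 15.3 in CR3, 270 ± 29.6 in scramble, 260 ± 19.2 in reverse and 264 ± 14.6 in mCherry, and was called against reverse alone (limma adjusted p = 0.0366). ZNF649, ZNF431 and ZNF85 had 82.7 ± 9.39, 232 ± 27.2 and 39.3 ± 5.36 in CR3 and 83.6 ± 12.7, 252 ± 70.8 and 53 ± 8.62 in mCherry, and in each of the 3 these groups overlapped.

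By protein type, 8 of the 131 tested members with a KRAB pattern were higher and 6 lower in all 3 comparisons, beside 11% and 11.2% of all genes, and all 8 passed the filter only through CR3. Of the 29 tested without one, 4 were higher and 2 lower. Of these 4, ZNF260 and ZNF536 likewise passed the filter only through CR3. The 225 tested ZNF genes of other chromosomes had 20 higher and 11 lower, and the 789 other tested protein-coding genes of chromosome 19 had 78 higher and 81 lower. Whether these shares differ was not tested.

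Between the groups without CR3 no member was called by limma. Scramble against mCherry gave 0 of 160, where 1.5% of all genes were called (0.745% higher and 0.758% lower). At an unadjusted limma p under 0.05 there were 10 members (6.25%), against 14.5% of all genes. Reverse against mCherry gave 0, where 0.629% of all genes were called (0.253% higher and 0.376% lower). Unadjusted, there were 4 members (2.5%), against 9.46% of all genes. Reverse against scramble gave 0, where 0.441% were called (0.279% higher and 0.162% lower). Unadjusted, there was 1 member (0.625%), against 7.17% of all genes. Limma with voom weights also called 0 members in each. Without mCherry replicate 3, 2 members were called in scramble against mCherry.

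The co-repressors that KRAB proteins use were also read, in a list that held other regulators of chromatin and DNA methylation as well. Of 33 genes listed, 31 were tested, 2 were higher and 6 lower in CR3 in all 3 comparisons, beside 11% and 11.2% of all genes. TRIM28 averaged 12933 ± 645 normalized reads in CR3, 16513 ± 678 in scramble, 15961 ± 535 in reverse and 15905 ± 1243 in mCherry, a log2 fold change of -0.35, -0.30 and -0.30 with a largest limma adjusted p of 0.000815. The HP1 genes CBX1 and CBX3, the maintenance methyltransferase DNMT1, the H3.3 chaperone DAXX and RESF1, which takes part in silencing of retroviruses, fell as well. The HP1 gene CBX5 was not called in any CR3 comparison (log2 fold change -0.12, -0.11 and -0.15 against scramble, reverse and mCherry). DNMT1 averaged 5299 ± 281 in CR3, 7013 ± 115 in scramble, 6822 ± 361 in reverse and 6279 ± 213 in mCherry. DNMT3A, a de novo methyltransferase, and TET1, which oxidizes methylated cytosine, rose; TET1 had 177, 259 and 238 in CR3, 115, 149 and 134 in scramble, 144, 136 and 148 in reverse and 134, 143 and 141 in mCherry. SETDB1 was called against scramble alone (log2 fold change 0.19, limma adjusted p = 0.0109). UHRF1 was not analysed here.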

How the data were processed

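The members and lists were chosen with earlier results of these data known. PolyA RNA of 12 HCT116 libraries was sequenced from a stranded TruSeq kit, per the labels' protocols. Per the submitters' processing notes, reads went through STAR, featureCounts, DESeq2 and edgeR on GRCh38, with FastQC, Salmon, MultiQC, Trim Galore and GATK also named. Tool versions, strand setting and gene annotation: not given in the sources used here. Values of overlapping or antisense genes are uncertain. The deposited values, of no standard unit (the other class), are read counts the authors scaled by 1 size factor per library, with the decimal mark lost from values of 1 or more; this was found from the values.

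Each value was restored as a whole multiple of what 1 read is worth in its library: 100% of 265152 nonzero values were whole at a tolerance of 1e-07. The power of 10 was chosen by negative binomial likelihood within the labelled groups; 98.41% of 18138 values that kept their mark were read rightly with it hidden. A total of 1924 values (0.726%) with a likelihood ratio under 20 to the next choice were ambiguous, and genes holding one were not tested. On simulated data 99.932% of values were restored. No simulated gene was given reads almost solely in CR3, so the rate does not cover such genes. Totals were 17430188 to 23566048 reads.

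Limma 3.58.1 (R 4.3.3), with a mean-variance trend, was fitted on log2(normalized reads + 1) over 12 libraries and 4 groups, for genes with at least 10 reads in at least 3 libraries, two-sided with Benjamini-Hochberg adjustment. A log-scale test was planned because normalized reads were expected, and it was kept, so no count model was used for the calls. Replicate numbers did not pair libraries: 1 of 18 same-number pairs correlated over 0.1. Fingers and KRAB patterns, planned on RefSeq proteins, were found in open reading frames of GENCODE release 29 transcripts; Python 3.11.15 with pandas 2.3.3, numpy 2.4.6, scipy 1.17.1 and matplotlib 3.10.9 did the rest. Libraries of 1 group differed beyond counting noise and stayed separate.

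Named members were those called in all 3 CR3 comparisons without overlap and with at least 20 normalized reads in the higher group; the 8 highest per kilobase; up to 6 with a group at 0; and 16 with a role known beforehand. For the 3 highest, the 3 most correlated genes were named. Alternatives covered pseudocounts, filters, scalings, voom, 2-group fits, a replicate block, powers chosen without labels and each library left out.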

Additional observations from a re-analysis of the deposited data

How the results depend on the processing

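Most results kept their side of the threshold; no direction reversed under any alternative run. The filter moved counts most. With at least 1 read in at least 1 library, 223 members were tested and 36 were called in all 3 (29 higher), 31 of these with a KRAB pattern. Under that filter 45 were called in CR3 against scramble, 49 against reverse and 41 against mCherry. It admits members with reads almost solely in CR3, and shares of all genes under it are not given here. With a mean of at least 50 normalized reads, 137 were tested, 16 were called against mCherry and 10 in all 3 (2 higher), 6 of these with a KRAB pattern; the cause is in the construction, since the genes at 0 outside CR3 leave the test. Without mCherry replicate 3, 2 members were called in scramble against mCherry, and without CR3 replicate 1, 19 in CR3 against scramble; the cause was not tested. With a library left out in turn, counts ran from 19 to 34 against scramble, from 22 to 38 against reverse, from 18 to 26 against mCherry and from 14 to 21 in all 3, from 0 to 2 in scramble against mCherry and 0 to 0 in the other 2 comparisons, from 11 to 15 for KRAB types, from 4 to 6 for regions, from 7 to 8 for the co-repressors and from 24 to 36 for ZNF genes elsewhere. With no read allowed outside CR3, an alternative chosen after seeing the data, 11 members had reads nearly confined to CR3 instead of 23, and 19 to 23 with a library left out. Without the 5 members with most reads the shares were 0.183% in CR3, 0.174% in scramble, 0.174% in reverse and 0.175% in mCherry, and over protein-coding reads 0.229%, 0.222%, 0.222% and 0.221%.

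With the replicate block, 15 members were called in all 3, all among the 20; the numbers share only a label, with same-number correlations of -0.344 to 0.222, and 1 of 12 libraries correlated best with its own number. Voom gave 19, fits of 2 groups 17 and ambiguous genes kept 23. With powers of 10 chosen without group labels the count was 17, and ZNF529, ZNF569 and ZNF681 were then not tested. In each of these genes a CR3 value was then read as smaller, so too few libraries reached 10 reads. A depth of 17430188 to 23566048 reads leaves members at a few reads without a detectable difference.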
